A study of Mus musculus with 6 samples.

Results

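Tek and 9 genes grouped with it as an angiopoietin and VEGF axis were examined in MLE-12 cells. The 9 included the receptor gene Tie1, the angiopoietin genes Angpt1 and Angpt2, and the angiopoietin-like gene Angptl4. The rest were the VEGF receptor genes Kdr and Flt1, the ligand genes Vegfa and Vegfc, and the co-receptor gene Nrp1. All 10 were found among the 36047 genes of the deposited tables. Tek was chosen because it was much lower after cigarette smoke extract in these same libraries, so its difference is described here without a test. The other 9 belong to the TIE or VEGF receptor systems or, for Angptl4, are related to the angiopoietins by name. They were also chosen with earlier results of these data known. RNA-seq was made from polyA RNA of MLE-12 cells given cigarette smoke extract (CSE, 3 libraries) or an equal volume of PBS (3 libraries). CSE, a solution of smoke constituents (5%, optical density 2), was added to cultures at 30% density, and cells of both groups were harvested 24 h later. Both groups are labelled wild type and are the same line, a mouse lung epithelial line immortalised by the SV40 large T antigen under a surfactant protein C promoter, so the antigen is shared by CSE and PBS cells. The labels describe cultured cells, but their extraction text mentions lung tissue, so markers of other lung cells were examined as well.

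Tek encodes TIE2, a receptor tyrosine kinase best known from endothelial cells and some blood cells. ANGPT1 activates it and ANGPT2 mostly blocks it, and TIE1 is a related receptor that pairs with it. VEGFA signals through KDR and binds FLT1, which acts largely as a decoy, VEGFC signals mainly through FLT4 and also KDR, and NRP1 is a co-receptor that serves both VEGF and the class 3 semaphorins. In the lung, epithelial cells are a main source of VEGFA for the neighbouring capillaries, whereas the receptors of this axis are usually thought of as endothelial. ANGPTL4, despite its name, is chiefly an inhibitor of lipoprotein lipase and a target of PPAR transcription factors.

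The 3 sequences below each mark a difference between a pair of Tek, Vegfa or Flt1 transcripts whose shares are described later. They were read from the GENCODE vM21 transcripts of GRCm38. Exon or coding bases that only the named transcript of the pair carries are in capitals, and 20 flanking bases are in lower case. The first is exon 4 of Tek-203, at chr4:94799127-94799279 on the + strand, 153 bases coding for 51 residues, which Tek-202 skips. The second is exon 6 of Vegfa-202, at chr17:46020991-46021122 on the - strand, 132 bases coding for 44 residues of the heparin-binding region, which Vegfa-201 skips. The third is the coding end of Flt1-203, at chr5:147639133-147639224 on the - strand, 92 bases that run into the next intron and replace the transmembrane and kinase part of Flt1-202, which gives the secreted decoy form.
Tek-203 exon 4: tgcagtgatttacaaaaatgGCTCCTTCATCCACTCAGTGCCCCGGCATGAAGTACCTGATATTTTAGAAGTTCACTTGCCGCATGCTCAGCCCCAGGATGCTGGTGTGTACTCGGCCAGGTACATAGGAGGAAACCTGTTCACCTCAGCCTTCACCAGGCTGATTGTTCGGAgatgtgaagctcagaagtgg
Vegfa-202 exon 6: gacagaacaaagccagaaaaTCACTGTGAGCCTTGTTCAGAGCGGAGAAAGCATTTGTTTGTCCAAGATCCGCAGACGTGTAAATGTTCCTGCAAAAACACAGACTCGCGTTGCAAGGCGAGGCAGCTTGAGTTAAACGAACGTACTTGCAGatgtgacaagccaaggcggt
Flt1-203 coding end: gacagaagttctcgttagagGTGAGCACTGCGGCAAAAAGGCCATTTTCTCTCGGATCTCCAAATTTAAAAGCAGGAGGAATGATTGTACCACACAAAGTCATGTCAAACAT

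Library totals over annotated genes lay between 12015159 and 23892645 estimated counts, where 3 counts, taken as the limit that a count of 0 allows, correspond to between 0.126 and 0.250 CPM (counts scaled to library size). Mitochondrial genes took between 2.19% and 2.89% of counts. CSE and PBS libraries were compared by edgeR's quasi-likelihood test over 13451 genes, with adjustment by Benjamini-Hochberg and a threshold of 0.05. At this threshold 11.4% of all genes tested were called, 4.32% higher and 7.12% lower in CSE. Whether each library is a culture of its own is not stated in the labels, and p-values therefore reflect only the spread among the libraries at hand, which may be technical. In bulk RNA, fewer cells expressing a gene and less of its RNA in each cell cannot be told apart.

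The level of a gene is given in TPM, estimated counts per length scaled to the same total in each library. The members spanned more than 3 orders of magnitude in TPM. In the order of mean TPM in CSE libraries, Nrp1 came first at 283 TPM and Vegfa next at 94.4 TPM, and no other member exceeded 3 TPM in any CSE library. In PBS libraries Nrp1 averaged 383 TPM and Vegfa 112 TPM, followed by Tek at 6.80 TPM and Flt1 at 4.23 TPM, and the libraries of neighbours in this order did not overlap down to Flt1. In CSE libraries Tek stood in sixth place, and its values overlapped those of Angptl4 above it and Vegfc below it. Angpt2 and Angptl4 were neighbours in both orders with overlapping values, as were Tie1 and Angpt1. Kdr was lowest in both groups.

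**Figure D1:**
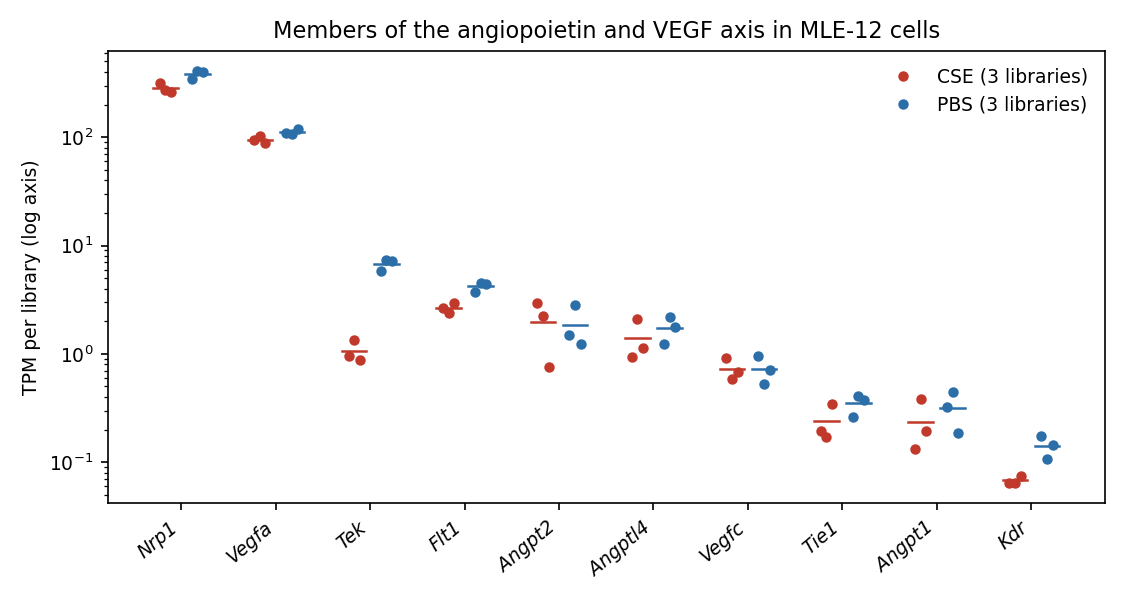
TPM of the 10 members in each library on a log axis, with CSE libraries in red on the left and PBS libraries in blue on the right of each gene, horizontal lines at the group means, and genes ordered by their PBS mean. Tek shows the widest gap between groups, with CSE values of 0.885 to 1.34 TPM and PBS values of 5.88 to 7.37 TPM.

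Among the receptors, Tek had 0.960, 1.34 and 0.885 TPM in CSE libraries, against 5.88, 7.37 and 7.15 TPM in PBS libraries. Every CSE library lay far under every PBS library, and the CSE mean of 1.06 ± 0.242 TPM was 15.6% of the PBS mean of 6.80 ± 0.805 TPM (SD, n = 3 each). These values rest on 33, 70 and 45 estimated counts in CSE libraries and 228, 380 and 372 in PBS libraries. In CSE replicate 2, 0.361 of the 1.34 TPM came from the short non-coding transcript Tek-204, on 1.1 counts. Scaled to depth, the ratio of the summed counts was 0.145, and counting error alone gave it a 95% interval from 0.121 to 0.173. The fitted log2 change was −2.76 ± 0.13 (SE), the lowest of the 10348 genes tested with a mean of at least 5 CPM and rank 5 among all 13451. These are the values by which Tek was chosen. Tek lies on chromosome 4 from 94739289 to 94874976, on the + strand of GRCm38. None of the 31-base words of its most abundant transcript occurs in a transcript of another gene (0 of 4519), and no other annotated gene overlaps it. Within 500 kb, 6 of 25 other annotated genes were tested and edgeR called 0 of them, beside 11.4% of all genes. At an unadjusted p under 0.05, 0 of the 6 passed, beside 26.0% of all genes. Mysm1, which encodes a histone deubiquitinase, lay at a log2 change of −0.14 ± 0.13, and Ift74, which encodes a ciliary transport protein, at 0.24 ± 0.12. The transcription factor gene Jun in the same window had a log2 change of −0.23 ± 0.15 (edgeR adjusted p = 0.359).

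Of the 4 Tek transcripts in the tables, Tek-202, which skips the exon shown above, took 33.0, 27.3 and 45.0 estimated counts in CSE libraries and 202.5, 216 and 246 in PBS libraries. Tek-203, with the exon, took 0, 36.8 and 0 estimated counts in CSE libraries and 19.1, 136 and 118 in PBS libraries. Tek-201, which also carries the exon, took 0, 4.81 and 0 in CSE libraries and 6.39, 27.7 and 7.67 in PBS libraries. In CSE, Tek-203 and Tek-201 thus had counts in replicate 2 alone, the deepest library. As a share of Tek TPM, Tek-202 made up 100%, 29.1% and 100% in CSE libraries and 88.8%, 57.0% and 66.6% in PBS libraries. The groups overlapped in this share, and the difference of 5.6 percentage points was smaller than the spread between CSE libraries (two-sided exact permutation p = 0.8). The smallest p that this design can give is 0.1. A change in exon 4 use could not be resolved with these counts, which in CSE total 148 for the whole gene. Coding transcripts held all Tek counts except 1.1 counts of Tek-204 in CSE replicate 2. Because Tek-204 has only 361 bases, coding transcripts held just 73.0% of Tek TPM in that library. This lowered its Tek-202 share and widened the CSE spread in TPM.

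**Figure D2:**
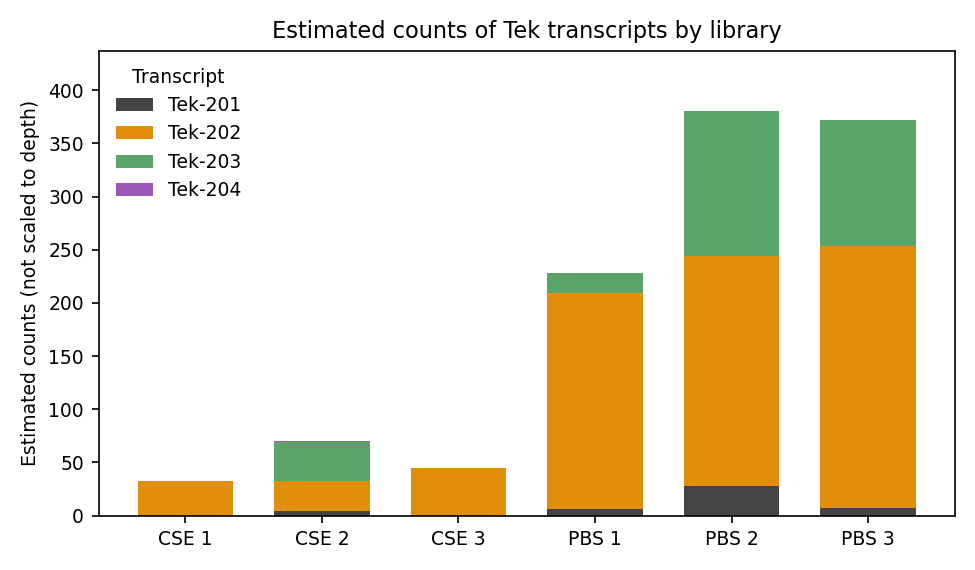
Estimated counts of each Tek transcript, stacked by library, with CSE libraries on the left and PBS libraries on the right, not scaled to depth. The CSE bars reach 33 to 70 counts and the PBS bars 228 to 380, and Tek-203 appears in CSE replicate 2 and in each PBS library.

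Tie1 was barely present, at 0.196, 0.172 and 0.348 TPM in CSE libraries against 0.262, 0.410 and 0.374 TPM in PBS libraries. The groups overlapped, and edgeR gave a log2 change of −0.50 ± 0.45 (adjusted p = 0.525). All of its counts, 22.2 in CSE and 30.8 in PBS, were assigned to Tie1-202, a transcript without a coding sequence, and both coding transcripts had 0 counts in every library. Of the 31-base words of Tie1-202, 3.05% also occur in other genes. The VEGF receptor gene Kdr was lower still, with 2, 5 and 5 counts in CSE libraries and 8, 6 and 8 in PBS libraries. Its CSE libraries lay under its PBS libraries in CPM, but its ratio of depth-scaled counts, 0.525, had a 95% interval from 0.237 to 1.11 by counting error, so no difference could be resolved at this depth. Kdr was too low for the fit (two-sided exact permutation p = 0.1, the smallest possible).

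Flt1, the decoy VEGF receptor gene on chromosome 5 (147561604 to 147726011, - strand), fell. It had 2.66, 2.39 and 2.93 TPM in CSE libraries, against 3.71, 4.54 and 4.45 TPM in PBS libraries. The groups did not overlap, and the log2 change was −0.73 ± 0.13 (edgeR adjusted p = 0.00348). Nrp1, the co-receptor gene on chromosome 8 (128358604 to 128503363, + strand) and the most abundant member, also fell, to 316, 270 and 263 TPM in CSE libraries against 344, 406 and 399 TPM in PBS libraries. The groups again did not overlap, and the log2 change was −0.36 ± 0.08 (edgeR adjusted p = 0.0153). Flt1 and Nrp1 were the 2 members called lower among the 7 that were tested besides Tek, beside 7.12% of all genes, and 0 were called higher. By an unadjusted p under 0.05, 3 of the 7 passed, beside 26.0% of all genes, and DESeq2 called 2 and gave no adjusted p for Tie1. The Flt1 call was lost on the TPM scale (limma on log2(TPM + 1), adjusted p = 0.0863, and with a pseudocount of 0.1, adjusted p = 0.0882). The Nrp1 call was lost in edgeR without CSE replicate 2 (adjusted p = 0.104), CSE replicate 3 (adjusted p = 0.0847) or PBS replicate 3 (adjusted p = 0.0531), with log2 changes of −0.32, −0.33 and −0.36.

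Of the Flt1 transcripts, Flt1-202, which encodes the full receptor, made up 53.4%, 47.8% and 43.2% of Flt1 TPM in CSE libraries, against 58.1%, 59.6% and 61.2% in PBS libraries. Flt1-206, a non-coding transcript with a retained intron, made up 21.1%, 24.3% and 27.1% in CSE libraries, against 13.3%, 17.7% and 10.4% in PBS libraries. Neither share overlapped between groups, with differences of −11.5 and 10.4 percentage points (two-sided exact permutation p = 0.1 each, the smallest possible, and adjusted p = 0.367 over the 11 transcripts compared). Flt1-203, the secreted form whose coding end is shown above, made up 26.2% ± 3.2 in CSE and 25.1% ± 2.1 in PBS, and its groups overlapped (SD, n = 3 each). Counted in estimated counts rather than TPM, the difference for Flt1-206 was 4.0 points, and that for Flt1-203 was 3.8 points with groups that did not overlap. Flt1-206 rests on 8 to 17 counts a library.

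The ligand genes had small differences or few counts. Vegfa, the main VEGF, on chromosome 17 (46016993 to 46032369, - strand), had 93.4, 102 and 88.1 TPM in CSE libraries, against 110, 107 and 118 TPM in PBS libraries. All 3 CSE libraries lay under all 3 PBS libraries, but the log2 change of −0.18 ± 0.07 did not pass the threshold (edgeR adjusted p = 0.152). Including Vegfa, Flt1 and Nrp1, CPM values did not overlap between groups in 3 of the 7 tested members besides Tek, beside 30.4% of all genes tested. Most Vegfa RNA was assigned to Vegfa-201, the short form of 146 codons without the heparin-binding exon. It made up 62.5%, 60.0% and 59.3% of Vegfa TPM in CSE libraries, against 62.5%, 66.0% and 65.3% in PBS libraries. CSE replicate 1 and PBS replicate 1 were equal to the printed decimal, and the difference of the means was −4.0 percentage points (two-sided exact permutation p = 0.1, adjusted p = 0.367). With Flt1-202 and Flt1-206, this made 3 of 11 transcript shares whose groups did not overlap, beside 11.8% of 16467 transcripts over all genes. Vegfa-202, the longer form with the exon, made up 27.8% ± 1.5 in CSE and 25.9% ± 2.0 in PBS (SD, n = 3 each). These transcripts also differ by 554 bases at their 5′ ends, and kallisto divides shared reads by a model, so the shares do not rest on the printed exon alone.

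Vegfc, the lymphatic VEGF, had 0.910, 0.582 and 0.685 TPM in CSE libraries and 0.95, 0.531 and 0.705 TPM in PBS libraries. The values overlapped throughout (log2 change 0.34 ± 0.41, edgeR adjusted p = 0.645). That change is in counts, 55 in CSE and 42 in PBS, while mean TPM was 0.726 in CSE and 0.728 in PBS. In PBS replicates 2 and 3, 0.174 and 0.258 TPM came from Vegfc-203, of 555 bases, on 0.66 and 1.1 counts. Angpt2, the TIE2 antagonist, had 2.92, 2.23 and 0.760 TPM in CSE libraries and 1.48, 2.84 and 1.23 TPM in PBS libraries. Its spread within each group exceeded the difference between them (log2 change −0.12 ± 0.38, edgeR adjusted p = 0.884), and its sign turned in 3 alternative settings. Its coding transcript held 57.8 of its counts in CSE and 66.7 in PBS. In TPM, the non-coding Angpt2-202, of 652 bases, made up means of 72.3% in CSE and 63.8% in PBS. That transcript had only 2.65 to 12.1 counts a library. The gene overlaps Mcph1 on the opposite strand. None of the 622 31-base words of Angpt2-202, its non-coding transcript, occurs in a transcript of another gene on either strand. The coding transcript was not checked in this way, so its reads may not be separable without strand information. Angpt1, the TIE2 agonist, was at 0.133, 0.385 and 0.193 TPM in CSE libraries and 0.320, 0.443 and 0.188 TPM in PBS libraries. Its coding transcript had 0 counts in CSE and 1 count in PBS, the rest lay on Angpt1-202, which has no coding sequence, and 33.7% of that transcript's 31-base words also occur in other genes, mostly in the antisense gene Gm17473. Its ratio of depth-scaled counts was 0.825, with a 95% interval from 0.349 to 1.92 by counting error, and the fit did not include it (two-sided exact permutation p = 0.5).

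Angptl4 had 0.933, 2.09 and 1.13 TPM in CSE libraries and 1.22, 2.19 and 1.79 TPM in PBS libraries. The groups overlapped, and it was not called (log2 change −0.31 ± 0.27, edgeR adjusted p = 0.517). Angptl4-202, annotated for nonsense-mediated decay, made up 26.0%, 47.9% and 84.4% of its TPM in CSE libraries and 70.0%, 73.1% and 73.6% in PBS libraries. The CSE libraries spread widely around the narrow PBS range (two-sided exact permutation p = 0.4).

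Other genes of the axis were taken from 6 lists of ligands, receptors, semaphorins, signal transducers, transcription regulators and lipoprotein lipase control. Of 65 listed genes 53 were tested, 3 rose and 9 fell, and 41 were not called, beside 4.32% higher and 7.12% lower over all genes. Their median log2 change was −0.07, and that of all genes tested was 0.01. Among 10 other ligands 0 of the 6 tested were called by edgeR, and 0 by DESeq2. At an unadjusted p under 0.05, 1 of the 6 passed, beside 26.0% of all genes. This was Angptl6, with a log2 change of 0.68 ± 0.28. Vegfb, a FLT1 ligand, averaged 107 ± 5.35 TPM in CSE and 104 ± 3.69 TPM in PBS (SD, n = 3 each), and Angptl2, a secreted angiopoietin-like protein, 14.6 ± 1.26 TPM in CSE and 14.4 ± 1.19 TPM in PBS.

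Among the receptors listed, Nrp2, which encodes the second neuropilin, fell to 9.0, 9.16 and 8.32 TPM in CSE libraries, against 20.8, 19.9 and 26.5 TPM in PBS libraries. No CSE library reached 10 TPM, and the log2 change was −1.27 ± 0.09 (edgeR adjusted p = 1.08e-05). The plexin gene Plxna4, which encodes a signalling partner of the neuropilins, fell to 3.63, 3.02 and 3.38 TPM in CSE libraries, against 6.80, 8.38 and 9.11 TPM in PBS libraries (log2 change −1.15 ± 0.09, edgeR adjusted p = 2.41e-05). Of the 9 receptors listed, 2 were thus called lower and 0 higher, beside 7.12% and 4.32% of all genes. At an unadjusted p under 0.05, 4 of the 9 passed, beside 26.0% of all genes. The other 7 were not called, among them Flt4 and Ptprb. Flt4 had a log2 change of −0.44 ± 0.15 (edgeR adjusted p = 0.0978), with CPM that did not overlap between groups. Ptprb, which encodes a phosphatase that acts on TIE2 and is counted as endothelial, was the most abundant of the receptors listed. It averaged 45.6 ± 6.19 TPM in CSE and 48.6 ± 7.96 TPM in PBS (SD, n = 3 each, log2 change 0.01 ± 0.09). Plxna1 averaged 34.9 ± 3.28 TPM in CSE and 41.3 ± 4.97 TPM in PBS and was not called.

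Of the 7 class 3 semaphorins, secreted ligands of neuropilins and plexins, 4 fell, 1 rose and 2 were not called, beside 7.12% lower and 4.32% higher over all genes, with a median log2 change of −0.75. Sema3f, a ligand of NRP2, fell to 34.3, 30.1 and 26.3 TPM in CSE libraries, against 50.2, 60.7 and 60.8 TPM in PBS libraries (log2 change −0.89 ± 0.07, edgeR adjusted p = 2.55e-05). Sema3a, a ligand of NRP1, fell to 21.3, 18.5 and 18.2 TPM in CSE libraries, against 26.4, 38.3 and 37.4 TPM in PBS libraries (log2 change −0.75 ± 0.11, edgeR adjusted p = 0.00139). In both genes every CSE library lay under every PBS library. Sema3b fell by 0.82 ± 0.16 on the log2 scale and Sema3d by 0.81 ± 0.13, but the TPM of Sema3d overlapped between groups and its call was lost on the TPM scale (limma on log2(TPM + 1), adjusted p = 0.236). Sema3c went the other way, with 44.9, 38.1 and 38.3 TPM in CSE libraries against 16.9, 20.02 and 20.7 TPM in PBS libraries. It was the most abundant class 3 semaphorin in CSE, where Sema3f led in PBS, and its log2 change was 1.16 ± 0.09 (edgeR adjusted p = 1.63e-05). Sema3e, which binds plexin D1, lay at −0.03 ± 0.13 on the log2 scale.

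**Figure D3:**
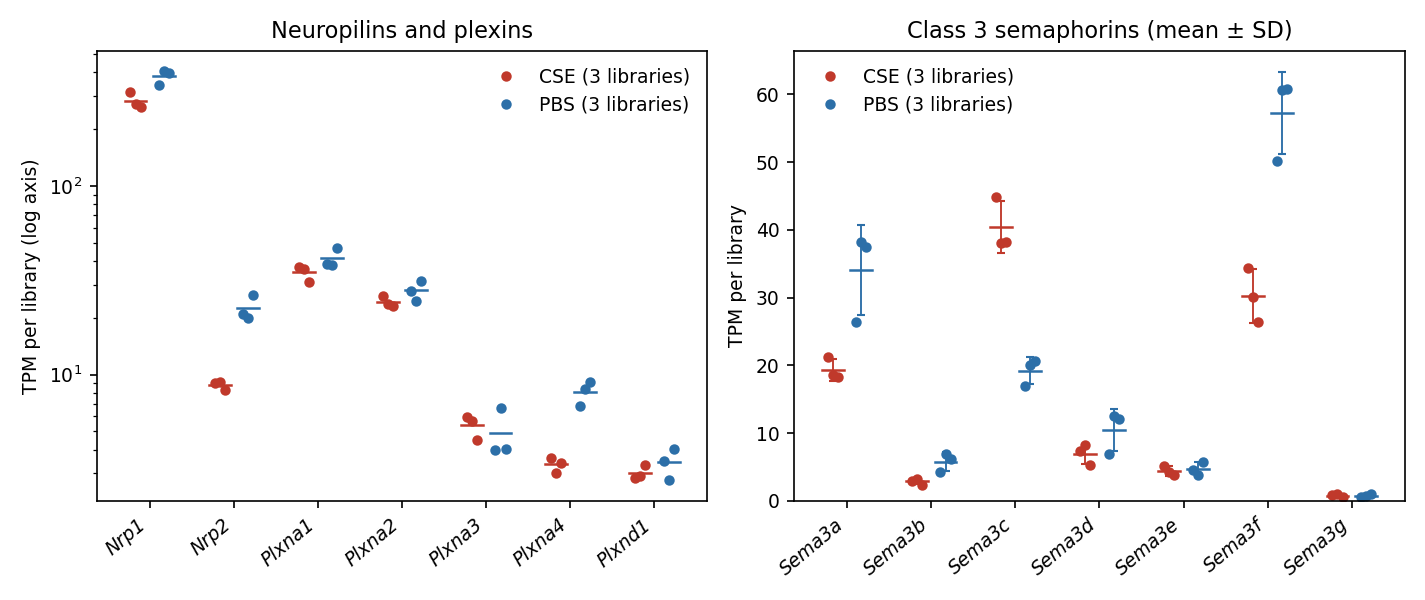
TPM by library of neuropilins and plexins on a log axis (left) and of class 3 semaphorins on a linear axis with mean ± SD (right), with CSE libraries in red on the left and PBS libraries in blue on the right of each gene. Nrp1, Nrp2, Plxna1, Plxna4, Sema3a, Sema3b and Sema3f were lower in every CSE library than in any PBS library, and Sema3c was higher in every CSE library. Plxna1 was not called. In CPM rather than the TPM plotted, Plxnd1 and Sema3d also did not overlap between groups. Over all genes tested, 30.4% had CPM that did not overlap between groups.

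Among 15 tested signal transducers, 2 were called lower and 0 higher, beside 7.12% and 4.32% over all genes, and neither call held in every alternative. Shb, which encodes an adaptor of activated receptor kinases, fell by 0.36 ± 0.09 on the log2 scale (edgeR adjusted p = 0.0258), and paxillin, Pxn, a focal adhesion protein, fell by 0.24 ± 0.07 (edgeR adjusted p = 0.0368). The Shb call was lost without CSE replicate 1, CSE replicate 3, PBS replicate 1 or PBS replicate 3 (adjusted p = 0.103, 0.121, 0.0514 and 0.0631), and the Pxn call without each library other than PBS replicate 2 (adjusted p between 0.0539 and 0.196) and with no filter on low counts (adjusted p = 0.0688). The kinase gene Akt1 had 274 ± 19.3 TPM in CSE and 310 ± 5.78 TPM in PBS (SD, n = 3 each) and Ptpn11, a phosphatase of receptor signalling, 80.5 ± 4.90 TPM in CSE and 97.4 ± 6.91 TPM in PBS, and neither was called.

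Of 12 tested transcription regulators, 2 rose and 1 fell, beside 4.32% higher and 7.12% lower over all genes. Klf2, known in endothelium as a flow-responsive factor, rose to 3.45, 3.19 and 3.79 TPM in CSE libraries, against 0.958, 0.790 and 1.23 TPM in PBS libraries (log2 change 1.89 ± 0.25, edgeR adjusted p = 0.000591). Klf2 rests on 44, 84 and 73 counts in CSE libraries and 14, 15 and 24 in PBS libraries, and the filter at a mean of 5 CPM left it out. Its relative Klf4 fell to 194, 194 and 187 TPM in CSE libraries, against 374, 328 and 389 TPM in PBS libraries (log2 change −0.84 ± 0.08, edgeR adjusted p = 8.15e-05). Neither gene overlapped between groups. Pparg, which encodes a fatty acid-responsive receptor, rose to 91.5, 90.7 and 91.1 TPM in CSE libraries, against 71.3, 61.4 and 72.4 TPM in PBS libraries (log2 change 0.47 ± 0.09, edgeR adjusted p = 0.00595), whereas Angptl4, a PPAR target, was not called. The hypoxia sensor Egln1 lay at 0.25 ± 0.09 on the log2 scale (edgeR adjusted p = 0.0935) and the hypoxia factor Hif1a at 0.05 ± 0.07, both not called. Among the genes of lipoprotein lipase control, 0 of 4 tested were called by edgeR, and Gpihbp1, Apoc2, Apoc3 and Apoa5 had 0 counts in every library. Lipg, which encodes endothelial lipase, lay at −1.10 ± 0.36 on the log2 scale with groups that did not overlap (unadjusted p = 0.0108, edgeR adjusted p = 0.0757), and DESeq2 called it (adjusted p = 0.043). Lpl itself averaged 0.826 ± 0.229 TPM in CSE and 1.13 ± 0.298 TPM in PBS (SD, n = 3 each). Lmf1 averaged 17.2 TPM in CSE and 16.0 TPM in PBS and Sel1l 25.5 TPM in CSE and 27.9 TPM in PBS, both of which help the lipase mature.

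**Figure D4:**
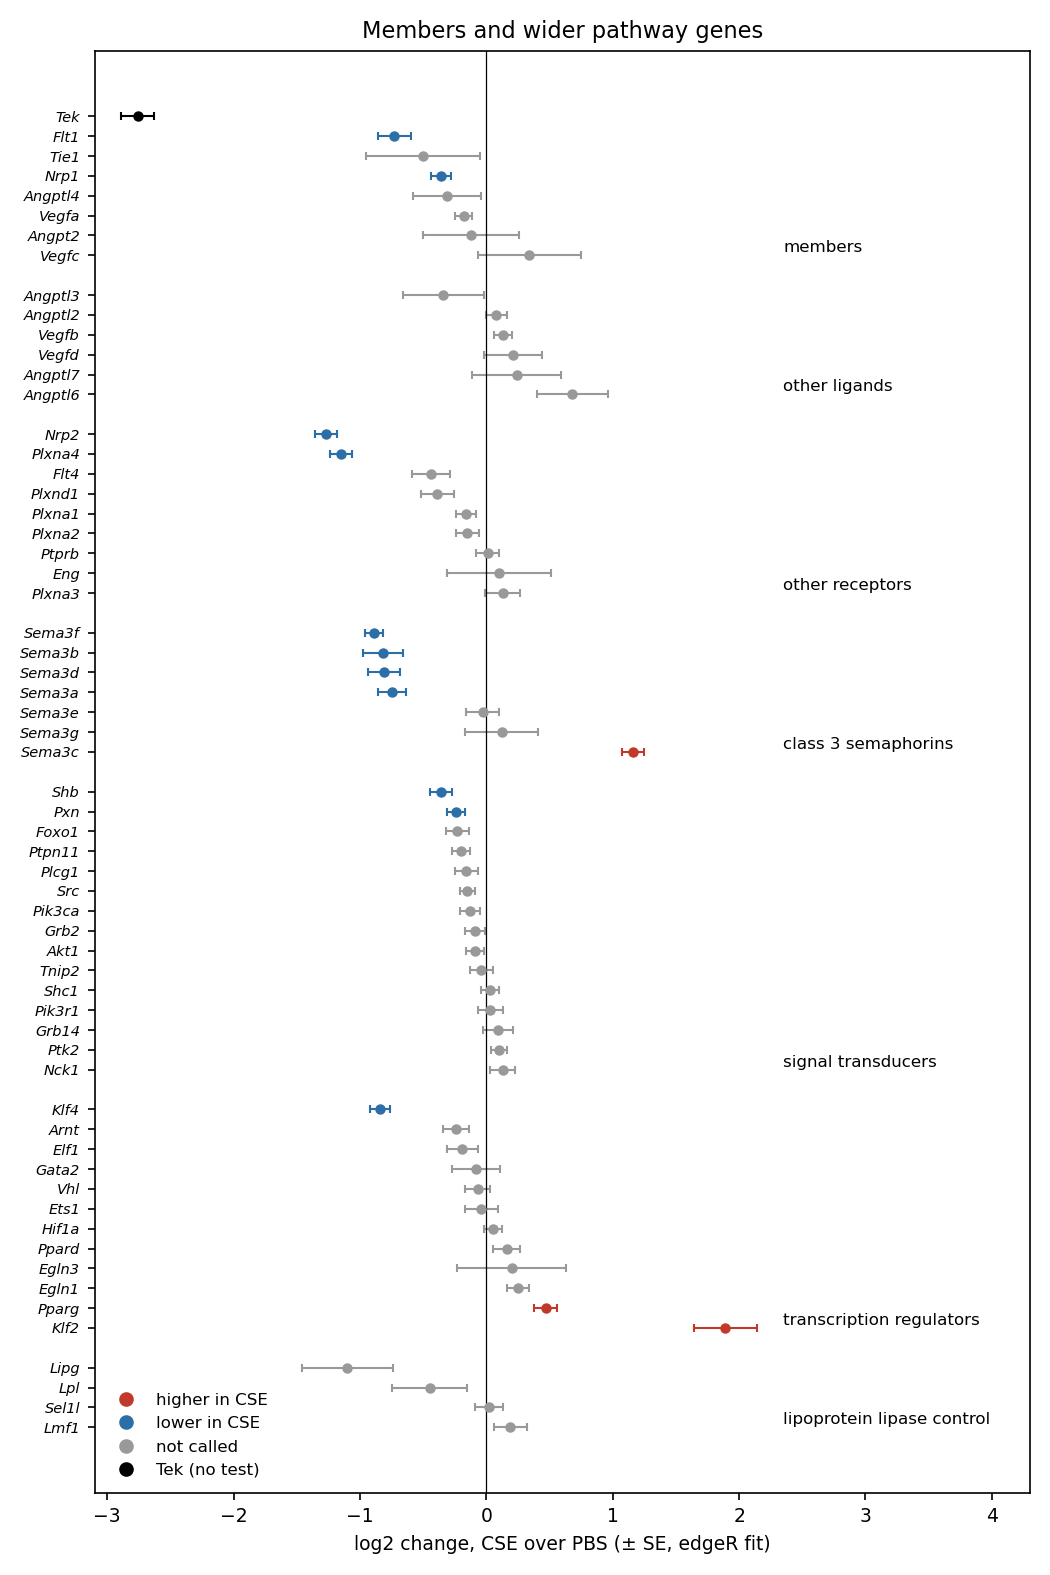
Fitted log2 change, CSE over PBS, with its SE (edgeR) for the 8 members and 53 wider genes that were tested, grouped by list. Red genes were called higher, blue genes lower and grey genes not called, and Tek, in black, lies farthest to the left at −2.76.

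The 5 genes whose profile over the 6 libraries was nearest to that of Tek were found by the root mean square difference of centred log2 CPM, among genes with a mean of at least 5 CPM. They were Aqp1, a water channel gene (0.34), Pkhd1l1 (0.39), Fam19a4 (0.47), Cacna1g, a calcium channel gene (0.50), and mesothelin, Msln (0.52). Aqp1 averaged 4.11 TPM in CSE and 18.0 TPM in PBS. Pkhd1l1 had 2.14, 0.557 and 0.538 TPM in CSE libraries and 2.21, 3.34 and 4.76 TPM in PBS libraries, so its groups nearly met in TPM. Msln averaged 32.1 TPM in CSE and 109 TPM in PBS. Likeness here is mostly a like difference between the groups and is a description with no test.

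Because Tek and its partners are usually read as endothelial, markers of other cells were examined in the same libraries. Of 19 endothelial markers, Cdh5, Sox17, Tal1 and Lyve1 had 0 counts in every library, and Cldn5 had 1 count over all libraries. Their summed level ranged from 19.6 to 21.2 TPM in CSE libraries and from 20.2 to 24.0 TPM in PBS libraries, most of it from Ramp2 (9.77 TPM in CSE and 10.3 TPM in PBS) and Egfl7 (3.61 TPM in CSE and 3.63 TPM in PBS). Of the 7 tested, 0 were called by edgeR or DESeq2 (which gave no adjusted p for Prox1), where edgeR called 11.4% of all genes. At an unadjusted p under 0.05, 2 of the 7 passed, Pecam1 lower and Vwf higher in CSE, beside 26.0% of all genes. Vwf had a log2 change of 1.07 ± 0.36 (edgeR adjusted p = 0.0828), with CPM that did not overlap between groups but TPM that did. Pecam1, an endothelial adhesion molecule, lay at 0.681, 1.18 and 0.781 TPM in CSE libraries and 1.59, 1.58 and 2.03 TPM in PBS libraries, with groups that did not overlap (log2 change −0.85 ± 0.27, edgeR adjusted p = 0.0671). Its part in the Tek difference was not tested. Mural cell markers summed to between 1.5 and 1.96 TPM in CSE libraries and between 1.4 and 2.09 TPM in PBS libraries, led by Notch3 and Pdgfrb. Leukocyte markers summed to between 5.35 and 7.46 TPM in CSE libraries and between 5.08 and 8.32 TPM in PBS libraries, with Adgre1 at 0 counts. Cd68 was most abundant at 3.12 TPM in CSE and 3.16 TPM in PBS. Of the 4 tested, 1 was called higher and 0 lower, beside 4.32% and 7.12% of all genes. This was Csf1r, with a log2 change of 0.94 ± 0.21 in counts (edgeR adjusted p = 0.0147), while its TPM overlapped between groups and averaged 2.00 in CSE and 1.76 in PBS.

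Of 6 mesothelial markers, 4 fell, Msln, Upk3b, Lrrn4 and Bnc1, beside 7.12% of all genes. Wt1 (6.17 TPM in CSE and 6.34 TPM in PBS) and Upk1b (0.729 TPM in CSE and 1.31 TPM in PBS, edgeR adjusted p = 0.138) were not called. The summed level of the 6 was 71.8, 70.2 and 63.6 TPM in CSE libraries, against 201, 227 and 210 TPM in PBS libraries. Most of this sum came from Msln, at means of 32.1 TPM in CSE and 109 TPM in PBS, and Upk3b, at 27.1 TPM in CSE and 88.8 TPM in PBS. The part of these markers in the Tek difference was not tested. Among lung epithelial markers, the transcription factor gene Nkx2-1 averaged 106 ± 7.60 TPM in CSE and 121 ± 7.51 TPM in PBS (SD, n = 3 each) and was not called. Of the 7 tested, 3 fell, Cdh1, Krt8 and Sftpc, beside 7.12% of all genes. Sftpc had few counts, 4, 8 and 7 in CSE libraries and 18, 19 and 18 in PBS libraries, and DESeq2 gave no adjusted p for it. Sftpa1 had 0 counts in every library. Krt8 averaged 160 TPM in CSE and 206 TPM in PBS.

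RefSeq promoters (GRCm38.p6) were found for 7 of the members, Tek, Tie1, Kdr, Flt1, Vegfa, Vegfc and Nrp1. The 250 bases before the start are shown for Tek and for Flt1, the receptor genes that were both lower, with the letters GGAA, the core that ETS factors bind, in capitals on either strand (GGAA or TTCC). The Tek window is chr4:94739039-94739288 on the + strand and the Flt1 window chr5:147726012-147726261 on the - strand.
Tek promoter: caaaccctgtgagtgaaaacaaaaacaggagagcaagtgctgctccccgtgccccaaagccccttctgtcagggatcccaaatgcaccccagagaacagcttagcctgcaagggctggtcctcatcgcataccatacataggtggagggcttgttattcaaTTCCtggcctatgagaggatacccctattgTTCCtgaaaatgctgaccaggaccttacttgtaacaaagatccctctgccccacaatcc
Flt1 promoter: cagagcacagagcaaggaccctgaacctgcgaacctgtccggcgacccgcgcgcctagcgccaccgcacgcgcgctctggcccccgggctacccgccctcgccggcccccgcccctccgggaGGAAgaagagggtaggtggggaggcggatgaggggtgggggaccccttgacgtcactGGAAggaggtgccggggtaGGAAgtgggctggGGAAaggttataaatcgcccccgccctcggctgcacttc
The Tek window held 2 GGAA sites and the Flt1 window 4, where 93.4% of 32851 promoters of this length held at least 1 and the median was 3. The letters GCGTG, the core bound by the aryl hydrocarbon receptor with its partner, occurred 0 times in the Tek window and 1 time in the Flt1 window on either strand (GCGTG or CACGC), where 28.2% of promoters held it. Of the members not shown, Nrp1, also called lower, held 1 GCGTG site, and Kdr, not tested, held 2. The uncalled Vegfa held 0 and 1 in its separate windows, and the uncalled Tie1 and Vegfc held 0. No GCGTG site shared a base with a GGAA site in these windows. Base content differed, with 51.2% G or C in the Tek window and 70.4% in the Flt1 window.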

How the data were processed

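Each deposited file holds 118489 transcripts with estimated counts and TPM, per the file headers, whose columns are those of kallisto. TPM corrects for transcript length and, as the authors deposited it, for depth. Per the submitters' processing notes, the tools were fastp 0.20.1, FastQC 0.12.1, kallisto 0.46.2 and DESeq2 1.40.2 on GRCm38. The index and strand are not given in the sources used. Transcripts were matched by identifier to GENCODE vM21 (98.6%), and the others, with 0.638% to 0.664% of counts, were left out. Estimated counts were summed by gene and rounded to whole numbers. Genes were filtered with filterByExpr (minimum count 10), normalised by TMM (factors 0.976 to 1.03) and fitted by edgeR (quasi-likelihood, two-sided) with treatment, CSE against PBS, as the factor. Counting intervals (95%, conditional exact binomial) and the limit of 3 counts reflect counting error alone, because reads that carry no molecular identifiers need not be separate molecules. Angpt1 and Kdr did not pass the filter, and Tie1 passed with few counts.

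Transcript shares were compared where a transcript held at least 10% of its gene's TPM, and its gene a mean of 20 counts or more a library, by two-sided exact permutation tests. Libraries within groups differed by more than sampling noise (chi-square per degree of freedom 5.61 to 17.7). The members, the lists and the motifs were chosen with earlier results of these data known. Named genes were all members, the called genes and the 2 most abundant genes of each list, and the 5 nearest to Tek. Genes near Tek, and others named with values such as Pecam1, Vwf, Cldn5, Hif1a, Sema3e, Flt4, Angptl6, Lpl, Lipg, Wt1 and Upk1b, were chosen after their values were seen. The alternatives tried were leaving out each library, the replicate number as a block, limma on log2(TPM + 1) or log2(TPM + 0.1), an effective length offset, a filter at a mean of 5 CPM or none, limma-voom, DESeq2, and scaling by RLE or library size. Python 3.11.15 with pandas 2.3.3 was used, and R 4.3.3 with DESeq2 1.42.0, limma 3.58.1 and edgeR 4.0.16.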

Additional observations from a re-analysis of the deposited data

How the results depend on the processing

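The log2 change of Tek lay between −2.81 and −1.92 over all alternatives, the smallest on the log2(TPM + 1) scale, which understates low genes, and −2.58 with log2(TPM + 0.1). Besides Tek, 2 members were called lower and 0 higher, and 1 was called lower with limma on log2(TPM + 1) or log2(TPM + 0.1), where Flt1 was lost, and with the replicate block, where Nrp1 was lost (adjusted p = 0.0654). Among the wider genes the replicate block also ended the call of Pxn (adjusted p = 0.109). With 1 library left out, 1 or 2 members were called, and DESeq2, limma-voom, RLE, library size, the length offset and both filters gave 2. The uncalled change of Angpt2 turned positive with limma on log2(TPM + 1) (0.02), without CSE replicate 3 (0.20) and without PBS replicate 2 (0.09), and with 1 library left out it lay between −0.37 and 0.20. Over all genes, 1539 were called (581 higher, 958 lower). The counts were 998 (224 higher) with log2(TPM + 1), 985 (220 higher) with log2(TPM + 0.1) and 1017 (330 higher) with the replicate block, and 1052 were higher with no filter on low counts. With 1 library left out, between 837 and 1943 genes were called, 281 to 969 higher and 554 to 981 lower. Same-numbered libraries did not deviate together (r = −0.124, 0.006 and −0.059 for replicates 1, 2 and 3), so the numbers were not taken to pair the samples. The causes of these shifts were not tested. Depth limits Tie1, Angpt1, Kdr and the division of Tek reads among its transcripts.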
